A study of Mus musculus with 138 samples.

Results

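Glycolysis and hypoxia response genes were examined in the sutures of the mouse skull vault. The set held 32 genes, chosen by name and role: 9 enzymes of upper glycolysis (Hk1, Hk2, Gpi1, Pfkl, Pfkp, Pfkm, Aldoa, Aldoc, Tpi1), 6 of lower glycolysis (Gapdh, Pgk1, Pgam1, Eno1, Eno2, Pkm), 3 regulators of flux (Pfkfb3, Pfkfb4, Pdk1), 4 genes of lactate formation and transport (Ldha, Ldhb, Slc16a1, Slc16a3), 2 glucose transporters (Slc2a1, Slc2a3), 5 hypoxia targets (Vegfa, Bnip3, Ankrd37, Ndrg1, Car9) and 3 genes of oxygen sensing (Hif1a, Egln1, Egln3). All 32 passed the low-count filter, out of 55487 genes in the files and 19768 tested. Every embryo was wild type C57BL/6J. Suture mesenchyme (SM), the tissue between the growing bones, and the osteogenic fronts (OF), the advancing edges of those bones, were taken by laser-capture microdissection at E16.5 and E18.5 from the frontal suture (SM and frontal bone OF), the coronal suture (SM, frontal OF and parietal OF), the lambdoid suture (SM, interparietal OF and parietal OF) and the sagittal suture (SM and parietal OF). This gave 20 groups of 5 libraries, each library of 1 group with its own litter ID in the labels, with 40 SM and 60 OF libraries in all. The comparisons asked how bone edge differed from mesenchyme within a suture, and how each region changed over the final days before birth.

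Glycolysis splits glucose into pyruvate in the cytosol and yields ATP without oxygen, and lactate dehydrogenase then turns pyruvate into lactate, which leaves the cell through monocarboxylate transporters. When oxygen is scarce, the prolyl hydroxylases encoded by Egln1 and Egln3 no longer mark HIF-1α, the product of Hif1a, for degradation, and the stabilised factor drives transcription of most glycolytic genes along with Vegfa, Bnip3, Ankrd37, Ndrg1 and Car9 through sites with the core ACGTG or GCGTG. Osteoblasts, the cells that lay down bone matrix, are known to take up much glucose and to release lactate even in the presence of oxygen. Since HIF-1α is regulated mainly as a protein, the level of Hif1a RNA is not a measure of its activity.

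RefSeq promoter windows (GRCm38.p6) of 250 bases ending just before the transcription start were found for 30 of the 32 genes; Ndrg1 and Slc2a3 were not matched. The letters ACGTG or GCGTG, on either strand, occurred in 79.5% of the 44 windows of these genes, against 38.6% of all 32851 windows and 52.8% of the windows of genes tested in the libraries. Counted by gene, 27 of 30 held a match in at least 1 window, or 90%, against 58.6% of tested genes and 41.5% of all genes. The matches did not set apart the genes higher in OF over both ages. Of those 21 of 23 held a match, or 91.3%, and of the other genes of the set 6 of 7, or 85.7%. Among all genes higher in OF the share was 65.9%. As the set was chosen for its roles in glycolysis and hypoxia, no test was made. The median GC content of the windows was 60.4%, against 52.4% over all windows and 59.2% over those of tested genes. The palindrome CACGTG counts on both strands, so it adds 2 matches. The windows printed here belong to genes on which the results turn, namely 4 of those higher in OF than in SM in nearly every comparison (Pgk1, Ldha, Slc16a3, Hk2), the gene with the largest fall in OF (Car9) and Bnip3, higher at E18.5. Each reads 5′ to 3′ on the strand of its gene, with the matches in capitals. Where RefSeq gives several starts, the window with most matches is shown.
Pgk1, chrX:106186850-106187099, plus strand: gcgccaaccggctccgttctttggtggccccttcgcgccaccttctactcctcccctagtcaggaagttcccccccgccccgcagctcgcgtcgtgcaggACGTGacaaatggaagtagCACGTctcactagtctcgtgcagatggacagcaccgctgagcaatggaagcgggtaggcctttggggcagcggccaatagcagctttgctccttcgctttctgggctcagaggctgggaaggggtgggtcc
Ldha, chr7:46845554-46845803, plus strand: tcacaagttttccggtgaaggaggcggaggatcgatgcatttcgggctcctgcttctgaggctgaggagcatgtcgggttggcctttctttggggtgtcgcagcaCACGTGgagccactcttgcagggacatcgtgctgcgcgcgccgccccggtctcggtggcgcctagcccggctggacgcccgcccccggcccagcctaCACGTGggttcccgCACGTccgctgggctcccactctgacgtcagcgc
Slc16a3, chr11:120948817-120949066, plus strand: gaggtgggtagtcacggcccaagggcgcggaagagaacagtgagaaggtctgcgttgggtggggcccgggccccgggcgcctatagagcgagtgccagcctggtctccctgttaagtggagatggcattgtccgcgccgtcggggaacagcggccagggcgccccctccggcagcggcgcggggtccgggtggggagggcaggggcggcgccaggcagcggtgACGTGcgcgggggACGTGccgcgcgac
Hk2, chr6:82774455-82774704, minus strand: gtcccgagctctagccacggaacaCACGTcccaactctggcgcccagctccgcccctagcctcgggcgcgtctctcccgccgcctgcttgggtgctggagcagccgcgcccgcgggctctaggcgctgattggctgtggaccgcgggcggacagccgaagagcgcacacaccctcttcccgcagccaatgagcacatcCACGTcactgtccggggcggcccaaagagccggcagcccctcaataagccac
Bnip3, chr7:138909507-138909756, minus strand: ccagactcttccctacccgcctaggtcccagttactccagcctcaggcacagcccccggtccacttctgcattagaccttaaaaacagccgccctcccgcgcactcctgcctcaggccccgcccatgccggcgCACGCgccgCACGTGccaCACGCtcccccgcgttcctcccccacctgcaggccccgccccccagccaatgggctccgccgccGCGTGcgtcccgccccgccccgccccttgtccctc
Car9, chr4:43506776-43507025, plus strand: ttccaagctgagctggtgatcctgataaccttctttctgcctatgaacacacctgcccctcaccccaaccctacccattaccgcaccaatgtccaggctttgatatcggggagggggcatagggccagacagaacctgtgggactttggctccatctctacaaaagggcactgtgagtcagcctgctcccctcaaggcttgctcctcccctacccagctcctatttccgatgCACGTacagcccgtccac
Ldha and Bnip3 held 5 matches each, Pgk1, Slc16a3 and Hk2 held 2 each and Car9 held 1. A match is a run of letters, and whether HIF-1α bound there was not measured.

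Library totals ranged from 7305627 to 34518477 counts with a median of 14244957. The 15 coronal libraries of E16.5 had a median of 36.3% mitochondrial reads, with a range of 25.7 to 52.4%, against a median of 18.9% in the other 85, where the range was 12.8 to 52.3%. In 3 libraries this share exceeded 50%, namely replicate 5 of the coronal frontal OF and of the coronal SM at E16.5 and replicate 5 of the frontal suture OF at E18.5. Library totals and mitochondrial shares differed between sutures, and their part in comparisons between sutures was not tested. The 16 libraries of complete sutures at E18.5, whose titles form 4 sets with all 4 sutures in each, were not used to separate suture from library set. The captured tissues were checked by their markers: of 10 osteoblast markers 9 were higher in OF over all sutures and ages with a median difference of 3.68 on the log2 scale, and of 9 mesenchyme markers 8 were lower. Not every suture showed this in the summed osteoblast markers, whose medians were 28090 CPM in SM and 26580 CPM in OF in the sagittal suture at E16.5, and 26880 and 27260 CPM in the frontal suture at E18.5, with overlapping libraries in both. All 10 proliferation markers were higher in OF, with a median log2 difference of 0.73. In bulk tissue, more cells of a type and more RNA per cell cannot be told apart.

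The whole set was first followed as a score, the mean over the 32 genes of the log2 CPM (counts scaled to the library total and its TMM factor) less each gene's mean over the 100 libraries. Averaged over sutures, the score lay 0.54 higher in OF than in SM at E16.5 and 0.60 higher at E18.5, on the log2 scale, while the pooled SD between libraries of 1 group was 0.18. Of 60 pairs of OF and SM with the same litter ID and replicate number, 57 had the higher score in OF, with a median difference of 0.67. In the coronal and lambdoid sutures each SM library is paired with both fronts, so the 60 pairs, here and below, are not all independent. The 5 coronal SM libraries of E16.5 formed the lowest group, with scores of -1.17, -0.54, -0.74, -1.11 and -0.84. The 5 sagittal parietal OF libraries of E18.5 formed the highest, with 0.56, 0.88, 0.95, 0.97 and 0.88. The frontal suture OF at E18.5 was the most scattered group, with 0.04, -0.47, -0.12, 0.30 and -0.84, and its lowest library was the one with 52.3% mitochondrial reads. As the genes were chosen with results of these libraries known, the score carries no test.

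**Figure D1:**
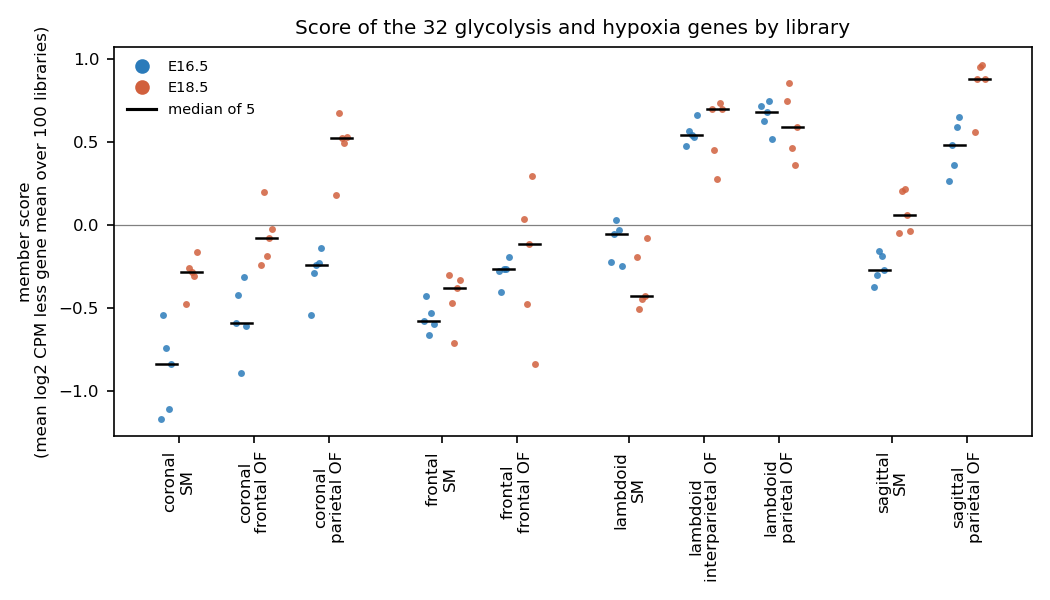
Score of the 32 genes (mean log2 CPM less the mean of each gene over 100 libraries, vertical axis) for each of the 5 libraries of the 20 groups, with group medians as bars. The median of each OF group lies above that of the SM of the same suture and age, and medians run from -0.84 in coronal SM at E16.5 to 0.88 in sagittal OF at E18.5. Single libraries of OF and SM overlap in some comparisons, such as the frontal suture at E18.5.

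Gene by gene, the osteogenic fronts carried more RNA of most of the pathway. In the mean over sutures and both ages, 25 genes were higher in OF, 4 were lower (Hk1, Pfkm, Eno2 and Car9) and 3 did not pass the test (Pfkp, Ldhb and Vegfa; edgeR quasi-likelihood test, Benjamini-Hochberg adjusted p of 0.05 over all genes tested). The same contrast called 55.2% of all genes tested, 27.7% as higher and 27.5% as lower in OF. The median log2 difference of the 32 genes was 0.60 and that of all genes -0.04. At E16.5, 20 were higher and 3 lower, where 44.1% of all genes were called (22.8% higher, 21.3% lower), and at E18.5, 22 were higher and 4 lower, where 42.1% were called (22.3% higher, 19.8% lower). In 14 of the 32 genes OF exceeded SM in at least 54 of these 60 pairs, which 7.1% of all genes tested did.

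Upper glycolysis phosphorylates glucose and splits the hexose into triose phosphates. Of its 9 genes, 6 were higher in OF and 2 lower. Hk2, the inducible hexokinase of muscle and growing tissues, ranged from 7.97 to 68.7 CPM in SM with a median of 18.2, and from 15.2 to 204.4 CPM in OF with a median of 43.8. It was higher in OF in all 60 pairs and differed by 1.19 ± 0.07 on the log2 scale (SE; edgeR adjusted p = 8.28e-27). Hk1, the constitutive hexokinase, went the other way, with medians of 30.6 CPM in SM and 23.3 CPM in OF and a log2 difference of -0.38 ± 0.07 (edgeR adjusted p = 3.75e-07). Per kilobase of exon, Hk2 made up a median of 47.3% of the sum of both hexokinases in SM and 74.8% in OF, and its share was higher in OF in 59 of 60 pairs.

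The later enzymes of this segment followed Hk2 to different degrees. Gpi1, which isomerises glucose 6-phosphate, differed by 0.34 on the log2 scale, Tpi1, the triose phosphate isomerase, by 0.65 and Aldoa, the main aldolase, by 0.88, and each was called. Aldoa had a median of 112.7 CPM in SM and 206.9 CPM in OF at E16.5, and OF was higher in 57 of 60 pairs. Aldoc, the brain-type aldolase, had the widest difference of the set, 2.29 ± 0.29, at a low level with medians of 0.64 CPM in SM and 6.82 CPM in OF. It reached 29.2 CPM in 1 SM library, and its share of both aldolases per kilobase rose from a median of 0.45% to 2.92%. Phosphofructokinase commits the hexose to glycolysis and is made from 3 genes, which behaved differently. Pfkl, the liver type, was higher in OF by 0.69 on the log2 scale, Pfkm, the muscle type, was lower by 0.30 and Pfkp, the platelet type, was at 0.03 ± 0.10 and not called. Per kilobase, Pfkl held a median of 34.1% of the 3 in SM and 48.2% in OF, and Pfkm 49.6% in SM and 32.5% in OF. The share of Pfkl was higher in OF in 55 of 60 pairs and that of Pfkm in 7.

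Lower glycolysis turns triose phosphate into pyruvate and returns ATP. Of its 6 genes 5 were higher in OF, and Eno2 was lower. Pgk1, phosphoglycerate kinase, which makes the first ATP of the pathway, was called higher in OF in 12 of the 12 comparisons. It ranged from 7.29 to 31.8 CPM in SM with a median of 15.4 and from 9.29 to 113.2 CPM in OF with a median of 57.6. OF exceeded SM in 59 of 60 pairs, with a log2 difference of 1.52 ± 0.07 (edgeR adjusted p = 1.76e-35). In the sagittal suture at E18.5 the 5 SM libraries held 18.2, 29.4, 19.6, 22.9 and 28.0 CPM of Pgk1, and the 5 OF libraries 78.0, 101.6, 95.1, 109.8 and 113.2 CPM. The groups did not overlap, as was so for 16.6% of all genes in that comparison with OF higher. In the coronal suture at E16.5 the SM libraries held 8.28, 10.8, 14, 9.49 and 11.4 CPM and those of the frontal OF 26.7, 21.0, 9.29, 28.3 and 11.9 CPM. Here the groups overlapped, since replicates 3 and 5 of the OF lay within the range of the SM.

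Gapdh, which oxidises glyceraldehyde 3-phosphate, had medians of 111.0 CPM in SM and 260.2 CPM in OF and differed by 1.10 ± 0.07 on the log2 scale (edgeR adjusted p = 5.03e-28). Pkm, pyruvate kinase, had medians of 160.5 CPM in SM and 357.3 CPM in OF and differed by 1.05 ± 0.06 (edgeR adjusted p = 6.39e-31). Each was higher in OF in 57 of 60 pairs. Pgam1, phosphoglycerate mutase, differed by 0.84 on the log2 scale and Eno1, the widely expressed enolase, by 0.80. Eno2, the neuronal enolase, was lower in OF by 0.36 ± 0.09 (edgeR adjusted p = 0.000274), and its share of both enolases per kilobase fell from a median of 12.7% in SM to 5.49% in OF. Gapdh, Pgk1, Eno1, Pgam1, Aldoa, Tpi1, Ldha and Pkm have processed pseudogenes in the mouse genome that can share reads with them. Without these 8 the score of the remaining genes still lay 0.43 higher in OF on the log2 scale.

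Lactate genes had the highest median difference of any role, 1.13 on the log2 scale. Ldha, the lactate dehydrogenase subunit that favours pyruvate reduction, was the most abundant of the set per kilobase and ranged from 179.4 to 697.2 CPM in SM with a median of 305.3, and from 323.3 to 1584.0 CPM in OF with a median of 862.0. The log2 difference was 1.30 ± 0.07 (edgeR adjusted p = 2.36e-33), with OF higher in 58 of 60 pairs. In the lambdoid suture at E18.5 the SM libraries held 285.1, 231.0, 249.3, 258.6 and 338.0 CPM of Ldha and the parietal OF libraries 1081.0, 1213.0, 734.6, 929.3 and 1104.0 CPM, with no overlap, as was so for 12% of all genes in that comparison with OF higher. Ldhb, the subunit of oxidative tissues, was not called, with medians of 8.52 CPM in SM and 7.65 CPM in OF. Its share of both subunits per kilobase was lower in OF, at a median of 1.74% against 5.21%, in 55 of 60 pairs. Slc16a3 encodes MCT4, the transporter that exports lactate from glycolytic cells. It ranged from 2.24 to 23.7 CPM in SM with a median of 10.2 and from 4.53 to 111.0 CPM in OF with a median of 40.9, and differed by 1.68 ± 0.10 (edgeR adjusted p = 7.03e-28). Slc16a1, which encodes the widely expressed MCT1, was higher in OF by 0.96.

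Entry of glucose and the control of flux differed less. Slc2a1, the basal glucose transporter GLUT1, ranged from 12.7 to 71.4 CPM in SM with a median of 39.7 and from 20.7 to 93.9 CPM in OF with a median of 55.9, and differed by 0.33 ± 0.08 on the log2 scale (edgeR adjusted p = 0.000368). Slc2a3, the high-affinity transporter GLUT3, differed by 0.29. Both passed in the mean, but each passed in OF's favour in only 2 of the 12 single comparisons, and Slc2a3 was lower in the coronal frontal OF at E16.5. That direction turned in repeat libraries, made for 3 replicates of each coronal region and age: over those replicates the log2 difference was -1.22 in the main and 0.37 in the repeat libraries of this front, and -0.84 and 0.92 in the parietal OF at E16.5. Pfkfb3 and Pfkfb4, which make the activator of phosphofructokinase, were higher in OF by 0.67 and 0.54. Pdk1, the mitochondrial kinase that inhibits pyruvate dehydrogenase, was higher by 0.19.

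**Figure D2:**
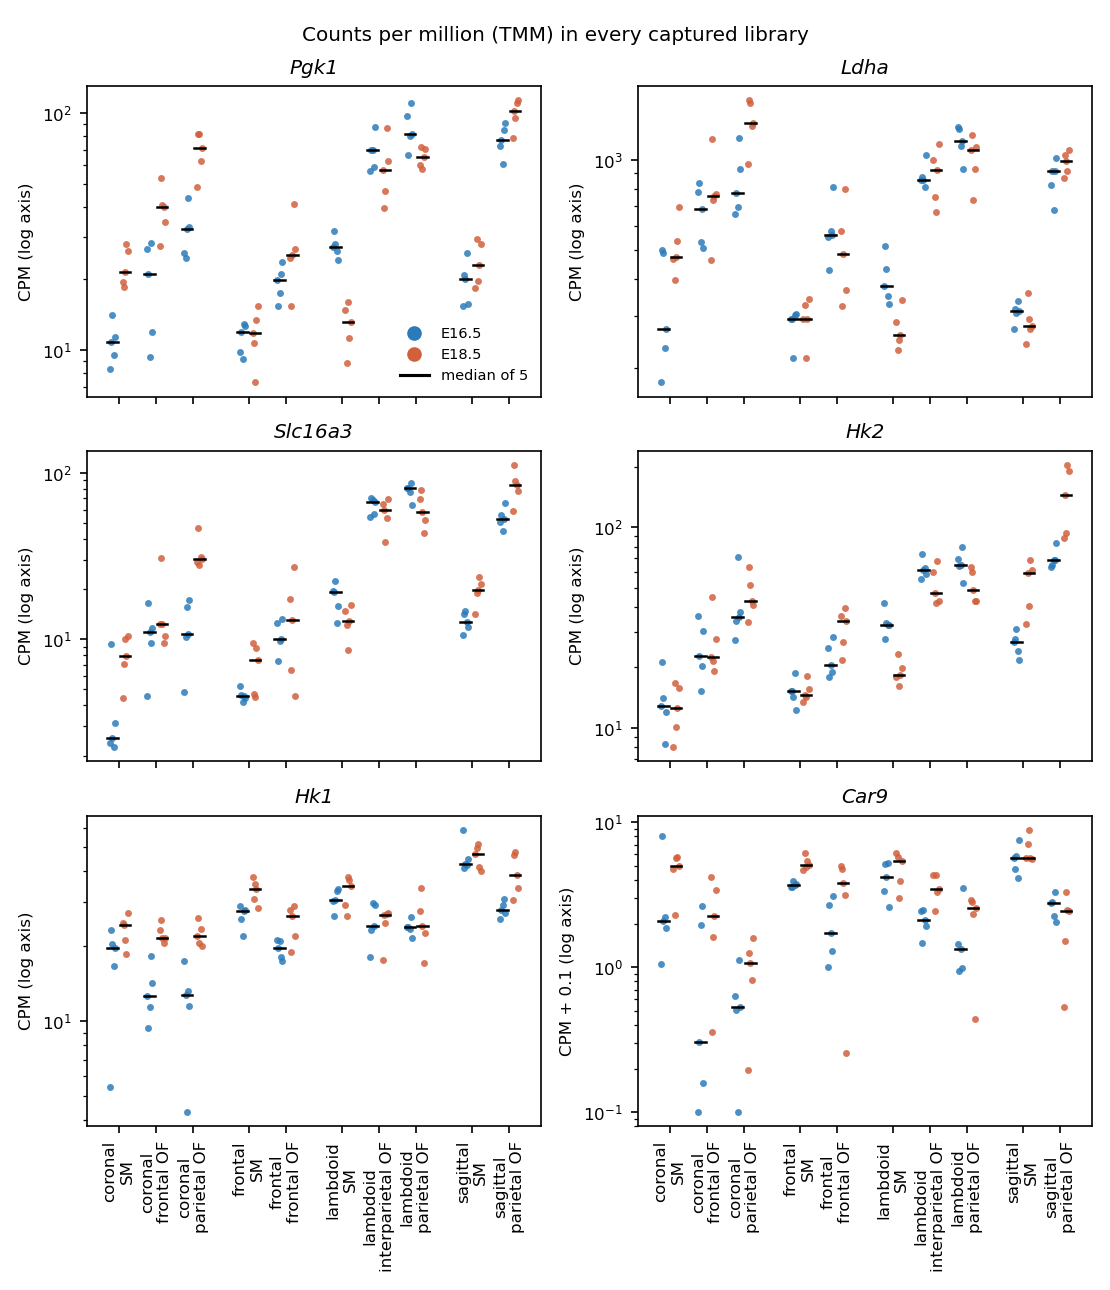
Level of Pgk1, Ldha, Slc16a3, Hk2, Hk1 and Car9 in CPM (log axes; 0.1 was added for Car9, which has zeros) in the 5 libraries of each of the 20 groups, E16.5 in blue and E18.5 in red, with group medians as bars. Pgk1, Ldha, Slc16a3 and Hk2 sit higher in OF than in the SM of the same suture, while Hk1 and Car9 sit lower.

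Genes of the hypoxia response did not move as a block. Ndrg1, a stress-induced gene of growth arrest, was higher in OF by 1.28 on the log2 scale and was called in 10 of the 12 comparisons. Ankrd37 was higher by 0.74, and Bnip3, a mitochondrial protein of mitophagy, by 0.55. Vegfa, the angiogenic growth factor, was not called by edgeR with TMM factors: it ranged from 17.7 to 125.3 CPM in SM with a median of 64.6 and from 24.5 to 92.1 CPM in OF with a median of 58.8. Its log2 difference was -0.09 ± 0.05 (edgeR adjusted p = 0.118), and without replicate 2 it was called at -0.16 (adjusted p = 0.00697). It was also called lower in OF by DESeq2 (-0.16, adjusted p = 0.00476), with median-ratio size factors (edgeR adjusted p = 0.00572), with total counts (-0.20, adjusted p = 0.00458) and without the coronal suture (-0.20, adjusted p = 0.00415). Single comparisons of Vegfa went both ways, at 0.56 in the coronal parietal OF (adjusted p = 0.00543) and -0.51 in the sagittal OF (adjusted p = 0.00889), both at E18.5.

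Car9, the carbonic anhydrase of the cell surface, was lower in OF in 56 of 60 pairs. It ranged from 0.96 to 8.75 CPM in SM with a median of 4.85 and from 0 to 4.90 CPM in OF with a median of 2.00, and differed by -1.27 ± 0.20 on the log2 scale (edgeR adjusted p = 2.21e-08). In the coronal suture at E18.5 the SM libraries held 4.69, 2.19, 5.54, 5.63 and 4.89 CPM and those of the parietal OF 0.09, 1.15, 0.97, 0.71 and 1.501 CPM. The groups did not overlap, as was so for 4.7% of all genes in that comparison with OF lower. Over the 3 replicates that have repeat libraries the log2 difference there was -2.50 in the main libraries and -0.63 in the repeat ones, and in the coronal frontal OF at E18.5 it turned from -0.81 to 0.59. Of the oxygen sensing genes, Hif1a ranged from 48.1 to 168.6 CPM in SM with a median of 78.7 and from 46.1 to 172.3 CPM in OF with a median of 89.2. It differed by 0.14 ± 0.05 (edgeR adjusted p = 0.00658) and passed in 1 of the 12 single comparisons. Hif1a did not pass without replicate 4 (edgeR adjusted p = 0.0599) or replicate 5 (adjusted p = 0.0857), nor by DESeq2 (0.07, adjusted p = 0.157), with median-ratio size factors (adjusted p = 0.161), with total counts (0.03, adjusted p = 0.511), or without the lambdoid (adjusted p = 0.122) or sagittal suture (adjusted p = 0.169). Egln1 and Egln3 were higher in OF by 0.22 and 0.26, and Egln3 did not pass without replicate 1 (edgeR adjusted p = 0.0813), replicate 3 (adjusted p = 0.0956) or replicate 4 (adjusted p = 0.19), by DESeq2 (adjusted p = 0.0989), under the other scalings, without the low-count filter, with the repeat coronal libraries, or without the lambdoid or sagittal suture.

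In the joint fit the number of calls varied between the fronts, and so did the share of all genes called. Over the 12 comparisons of OF with SM, 163 of 384 tests of these genes were called as higher in OF and 11 as lower; the comparisons of both fronts of a coronal or lambdoid suture share their SM libraries. Beside each number higher in OF stands the share of all genes called there, in either direction and as higher. At E18.5 the coronal frontal OF had 2 (3.46%, 2.43% higher) and the frontal suture 6 (11.1%, 6.85% higher). The coronal parietal OF had 19 (18%, 9.77% higher), the lambdoid interparietal OF 18 (19.5%, 12.2% higher), the lambdoid parietal OF 21 (24.5%, 14.7% higher) and the sagittal OF 16 (25.3%, 14.5% higher). At E16.5 the coronal frontal OF had 12 (30.3%, 14.9% higher), the frontal suture 6 (7.95%, 5.18% higher) and the coronal parietal OF 15 (35.5%, 16.6% higher). The lambdoid interparietal OF had 16 (11.2%, 7.29% higher), the lambdoid parietal OF 17 (23%, 13.4% higher) and the sagittal OF 15 (17.8%, 11.2% higher). In the coronal frontal OF at E18.5 there was 1 call without replicate 2 or replicate 3 and 4 without replicate 5 or the 3 libraries of most mitochondrial reads, and in the frontal suture at E18.5 there were 3 without replicate 3 and 2 without replicate 4. With each suture fitted by itself both the counts and the share of all genes called in either direction changed. At E16.5 the frontal suture then had 9 higher (15%), the coronal frontal OF 8 (8.91%) and the coronal parietal OF 12 (13.3%). At E18.5 they had 10 (19.8%), 0 (1.02%) and 10 (6.03%). The lambdoid interparietal, lambdoid parietal and sagittal OF had 17 (21.9%), 20 (36.3%) and 18 (42.8%) at E16.5. At E18.5 those had 21 (33.1%), 24 (38.1%) and 21 (51.2%). In the joint fit Pgk1 was higher in 12 of 12, Hk2, Pkm, Ldha and Slc16a3 in 11, and Gapdh and Ndrg1 in 10.

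**Figure D3:**
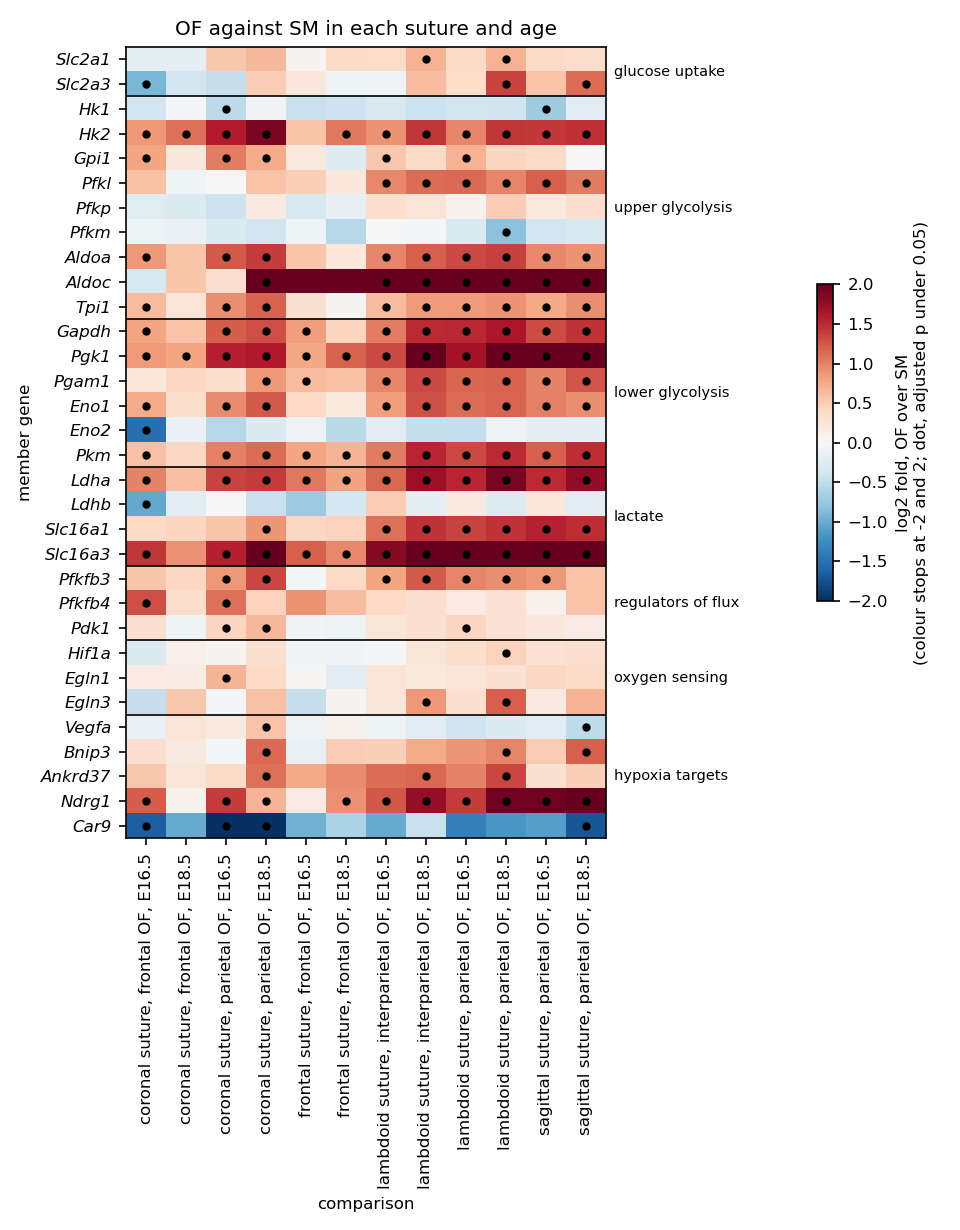
Log2 difference of OF from SM for each of the 32 genes (rows, by role) in the 12 comparisons (columns), with a mark where the edgeR adjusted p was under 0.05. Most genes of lower glycolysis and Ldha, Slc16a1 and Slc16a3 are higher in OF in nearly every column, Ldhb is above 0 in 4 of 12, the columns of the frontal bone are paler, and Car9, Hk1 and Eno2 are lower.

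Frontal bone fronts were compared with the others after these values had been seen. The difference of OF from SM at both frontal bone fronts, less that at the 4 parietal and interparietal fronts, was lower for 20 of the 32 genes and higher for 0 over both ages, where 14.6% of all genes were called, 8.37% as lower. Pgk1 had the lowest adjusted p, with a log2 difference of -0.94 ± 0.12 between the bones (edgeR adjusted p = 9.55e-09), and Ndrg1 stood at -1.003, Slc16a3 at -0.89, Ldha at -0.67 and Hk2 at -0.49. At E16.5 alone 4 genes were lower, where 2.91% of all genes were called (1.26% lower), and at E18.5 14 were, where 11.5% were called (6.91% lower). Over both ages 13 genes passed when replicate 4 was left out, and at E16.5 leaving out replicate 1, 3 or 4 left 1 and replicate 2 left 2. Of the 10 proliferation markers 6 were also lower in this contrast and of the 10 osteoblast markers 2 were lower and 1 higher. Their part in the result was not tested.

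Within the coronal suture the comparison does not cross sutures, and both fronts carry the same litter IDs. This comparison was also added after the values had been seen. Its libraries enter the comparison of bones above as well, so it is not a separate check of it. The parietal OF exceeded the frontal OF in 15 of the 32 genes and was lower in 0 over both ages, where 13.9% of all genes were called, 6.32% as higher. Slc2a1 differed by 0.78 ± 0.18 on the log2 scale (edgeR adjusted p = 0.00116), Pgk1 by 0.76 ± 0.15 (adjusted p = 0.000111) and Hk2 by 0.75 ± 0.15 (adjusted p = 0.000332). At E18.5 the frontal OF libraries held 27.5, 53.3, 40.9, 39.9 and 34.7 CPM of Pgk1 and the parietal OF libraries 48.7, 81.3, 81.6, 62.9 and 71.2 CPM. These groups overlapped by replicate 2 of the frontal OF. When the coronal suture was fitted by itself, 1 of the 32 genes was called over both ages (1.32% of all genes). With total counts in place of TMM factors 7 were, for which no share of all genes is given. At E16.5 alone 5 genes were called (14.4% of all genes), and 1 without replicate 3. At E18.5 alone 12 were (5.39%), and 5, 6 and 7 without replicates 3, 4 and 5. The summed level of the osteoblast markers at E18.5 ranged from 14940 to 36670 CPM in the frontal OF and from 31080 to 58880 CPM in the parietal OF. Markers of other cell types lay higher in the frontal OF without overlap, the endothelial ones at 166.1 to 410.6 CPM against 57.6 to 93.0, the pericyte ones at 463.3 to 1004.0 against 271.1 to 439.2 and the hypodermis ones at 120.2 to 143.7 against 28.2 to 69.1. Their part in the result was not tested.

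Other genes of the pathways, outside the 32, were read in the same contrasts. Of 15 other glycolysis genes that could be tested, out of 22 listed, 6 were higher in OF and 5 lower, with a median log2 difference of 0.07. Slc16a7, a pyruvate and lactate transporter, was higher by 0.88, and Pgam2, the muscle phosphoglycerate mutase, by 1.87. Of 30 other hypoxia genes 13 were higher and 10 lower, with a median of 0.13. The collagen prolyl hydroxylases P4ha1 and P4ha2 were higher in OF by 1.77 and 1.82, and Hif3a, a HIF subunit that lacks full activity, was lower by 0.71. Of 28 genes listed for pyruvate use and the TCA cycle, some of them cytosolic, 21 were higher in OF and 4 lower, with a median of 0.49. Among them Cs, citrate synthase, was higher by 0.58, Mdh1, the cytosolic malate dehydrogenase, by 0.87 and Dld, a subunit of pyruvate dehydrogenase, by 0.63. In this contrast 55.2% of all genes were called (27.7% higher, 27.5% lower), and the median over all genes was -0.04. Between the ages, where 20.4% of all genes were called (9.96% higher, 10.4% lower), 2 of the 15 other glycolysis genes were higher at E18.5 and 2 lower, with a median log2 change of -0.06. Of the 30 other hypoxia genes 11 were higher and 5 lower, with a median of 0.15, and of the 28 genes listed for pyruvate use and the TCA cycle 0 were higher and 8 lower, with a median of -0.09.

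Between E16.5 and E18.5 a smaller part of the set changed. In the mean over sutures and both regions 14 genes were higher at E18.5 and 1, Slc16a1, was lower at -0.33 (edgeR adjusted p = 0.00246), where 20.4% of all genes were called (9.96% higher, 10.4% lower). The median log2 change was 0.20, against 0.01 over all genes. Slc16a1 did not pass in limma-voom with the litter ID as a block (adjusted p = 0.0505), and without the frontal or the lambdoid suture 0 genes were lower. Of 5 hypoxia targets 4 rose (Car9 did not pass), of 9 genes of upper glycolysis 5, of 6 of lower glycolysis 2 (Pgk1 and Eno2), of 3 regulators 2 (Pfkfb3 and Pdk1), of 4 lactate genes 1 (Slc16a3), and the 5 genes of glucose uptake and oxygen sensing did not pass the test. Egln3, at 0.21 (edgeR adjusted p = 0.146), passed without replicate 2 (0.29, adjusted p = 0.0372) and without the lambdoid suture (0.37, adjusted p = 0.0238). Hk2, at 0.19 (edgeR adjusted p = 0.0575), passed by DESeq2 (0.20, adjusted p = 0.029), with median-ratio size factors (adjusted p = 0.033), with the repeat coronal libraries (0.23, adjusted p = 0.0161), without replicate 1 (0.25, adjusted p = 0.0156) or replicate 3 (0.26, adjusted p = 0.0135), and without the coronal (0.24, adjusted p = 0.0384) or the lambdoid suture (0.44, adjusted p = 6.24e-05). Without the coronal suture 9 genes were higher and 2 lower, and Pgk1, at 0.24 in the mean, turned to -0.04. Pgk1 also missed the threshold without replicate 5 (edgeR adjusted p = 0.0659) and with the repeat coronal libraries (0.04, adjusted p = 0.794). It missed as well in limma-voom with the litter ID as a block (adjusted p = 0.0502). Slc16a3 was at 0.25 without the coronal suture and did not pass (adjusted p = 0.128). In SM alone 6 were higher and 1 lower, where 11% of all genes were called (5.05% higher, 5.9% lower), and in OF alone 13 were higher and 0 lower, where 12.3% were called (6.09% higher, 6.2% lower). Without replicate 1, 4 or 5 there were 4 calls in SM, and without the coronal suture 4 in SM and 5 in OF. In the same contrast 5 of 8 endothelial and 8 of 9 macrophage markers were higher at E18.5 and all 10 proliferation markers were lower; their part in the result was not tested.

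Vegfa had the lowest adjusted p between the ages. It ranged from 33.6 to 91.9 CPM with a median of 52.6 in SM at E16.5, and from 17.7 to 125.3 CPM with a median of 73.7 in SM at E18.5. In OF the medians were 53.5 CPM at E16.5 and 71.8 CPM at E18.5. The log2 change was 0.43 ± 0.05 (edgeR adjusted p = 1.21e-10), and the change was above 0 in 10 of 10 regions. In the sagittal SM it went from 57.4, 63.3, 72.8, 80.5 and 70.7 CPM to 104.1, 125.3, 111.0, 121.4 and 95.0 CPM, without overlap, which 3.28% of all genes showed in that comparison with E18.5 higher.

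Bnip3 rose by 0.76 ± 0.12 on the log2 scale (edgeR adjusted p = 5.02e-07) and was also above 0 in 10 of 10 regions. In the frontal suture OF it went from 5.92, 7.41, 6.10, 7.47 and 3.90 CPM at E16.5 to 19.4, 23.9, 16.2, 25.6 and 10.8 CPM at E18.5, again without overlap, which 2.9% of all genes showed there. Ndrg1 rose by 0.57 ± 0.09 (adjusted p = 7.09e-08) and Ankrd37 by 0.44. Without the coronal suture Ndrg1 was at 0.27 and missed the threshold (adjusted p = 0.0535). Car9, not called by edgeR, was called higher by DESeq2 (0.49, adjusted p = 0.0311) and limma-voom (0.52, adjusted p = 0.0402). Eno2, lower in OF, rose with age by 0.53 ± 0.09 (adjusted p = 1.64e-06), with medians of 12.7 and 18.1 CPM in SM and 10.4 and 14.2 CPM in OF. Hk1 rose by 0.32 ± 0.07 (adjusted p = 6.86e-05), Aldoa by 0.35 ± 0.07 (adjusted p = 7.62e-05) and Gpi1 by 0.27 ± 0.06 (adjusted p = 0.000236). The calls of Aldoa and Gpi1 rested on the main coronal libraries. Without the coronal suture Aldoa was at 0.10 (edgeR adjusted p = 0.476) and Gpi1 at 0.14 (adjusted p = 0.16), and with the repeat coronal libraries Aldoa was at 0.14 (adjusted p = 0.372) and Gpi1 at 0.12 (adjusted p = 0.308). Ldha, at 0.04 ± 0.06, Gapdh, at -0.08 ± 0.06, and Pkm, at 0.07 ± 0.06, were not called. Gapdh was called lower at E18.5 without the coronal suture (-0.25, adjusted p = 0.015) and with the repeat coronal libraries (-0.17, adjusted p = 0.0472), and Pkm was called higher without the frontal suture (0.18, adjusted p = 0.032).

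In the fit over all sutures most single changes with age lay in the coronal suture. In that joint fit, of the 96 tests in the 3 coronal regions 37 were called as higher and 1 as lower at E18.5, against 7 higher and 2 lower of 224 tests in the other sutures. The share of all genes called differed likewise, at 20.4 to 27.1% in the coronal regions and 0.293 to 4.32% in the others. The counts are therefore not read as particular to the set. In the coronal SM 10 genes rose (27.1% of all genes called, 13.5% as higher), in the frontal OF 9 rose and 1 fell (24.4%, 12.6% as higher), and in the parietal OF 18 rose (20.4%, 11.5% as higher). Ndrg1 in the coronal SM went from 15.6, 31.3, 18.1, 8.59 and 8.10 CPM to 36.7, 44.5, 72.2, 54.2 and 110.2 CPM, a log2 change of 1.96 ± 0.26 (edgeR adjusted p = 1.35e-08), with no overlap, which 4.05% of all genes showed there with E18.5 higher. Pgk1 changed by 1.07 in the coronal SM, 1.01 in the frontal OF and 1.12 in the parietal OF, and Aldoa by 1.11, 0.81 and 1.29. A contrast added after these values had been seen set the coronal change against the mean of the other sutures: it was higher for 15 genes and lower for 2, where 37.2% of all genes were called (19.8% higher, 17.4% lower). In that contrast 7 of the 10 proliferation markers were higher and 4 of the 10 osteoblast markers lower. In the coronal SM the summed hypodermis markers ranged from 47.2 to 90.8 CPM at E16.5 and from 168.2 to 254.6 CPM at E18.5. The chondrocyte markers ranged from 84.0 to 126.7 CPM and from 243.8 to 332.5 CPM, and the macrophage markers from 30.1 to 75.5 CPM and from 138.6 to 204.9 CPM, without overlap of the ages. Their part in the result was not tested. Without replicate 1 the SM part of this contrast (23.7% of all genes called) went from 11 calls to 5, and the OF part (27.3%) from 14 to 8 without replicate 2 and to 5 without replicate 5. Fitted by itself, the coronal suture gave 5 genes higher at E18.5 in SM (7.47% of all genes called in either direction), 2 in the frontal OF (5.24%) and 3 in the parietal OF (3.09%). The sagittal suture by itself gave 10 in SM (8.52%) and 13 in OF (12.9%), and the frontal suture 3 in SM (5.44%) and 4 in OF (10.5%), with 1 lower in each. The lambdoid suture gave 7 lower in SM (9.34%), 3 higher in the parietal OF (5.1%) and 0 in the interparietal OF (2.16%). In the joint fit without replicate 5 the coronal SM had 6. With total counts in place of TMM factors the coronal SM had 20 calls and the frontal OF 22, for which no share of all genes is given.

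The coronal libraries of E16.5 have the highest median of mitochondrial reads, and repeat libraries of some of the same samples gave other values. They cover 3 replicates of each region at each age, namely replicates 1, 2 and 3 at E16.5, replicates 1, 3 and 4 of SM and parietal OF at E18.5, and replicates 1, 3 and 5 of the frontal OF at E18.5, so that the last share only 2 numbers with the SM. The repeat libraries of E16.5 had 13.48 to 16.52% mitochondrial reads. Over the 32 genes the median log2 change with age was 0.55 in the coronal SM in the main libraries of these replicates and 0.01 in the repeat libraries, 0.34 and -0.07 in the frontal OF, and 0.58 and 0.42 in the parietal OF. With the repeat libraries in the fit, 1 gene was called in the coronal SM, 2 in the frontal OF and 5 in the parietal OF, and 3 in the contrast with the other sutures, where 10.4%, 10.5%, 7.74% and 18.3% of all genes were called. For Pgk1 in the SM the change was 1.04 and -0.44, while for Ndrg1 it was 1.33 and 1.23. For the difference of OF from SM in the parietal OF the medians of the main and repeat libraries were 0.61 and 0.45 at the earlier age and 0.88 and 0.92 at the later one, and in the frontal OF 0.20 and 0.36, then 0.21 and 0.29.

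Outside the coronal suture the joint fit gave few calls, and the fits of single sutures gave more, up to 13 in the sagittal OF. The lambdoid OFs had 0 calls by edgeR, DESeq2 or limma-voom, with 0.293% of all genes called in the interparietal and 1.01% in the parietal OF, and 0 and 7 genes there had an unadjusted edgeR p under 0.05. Pdk1 rose in the frontal SM by 0.56 and in the frontal OF by 0.53, where Bnip3 rose by 1.64 and Vegfa by 0.68. Those groups called 2.33% and 4.32% of all genes. Hk2 rose in the sagittal suture, by 1.00 ± 0.22 in SM (edgeR adjusted p = 0.00406, 1.1% of all genes called) and by 1.05 ± 0.22 in OF (adjusted p = 0.00143, 1.59% of all genes called), and Vegfa rose in sagittal SM by 0.69. In the sagittal OF Hk2 went from 63.6, 64.8, 68.5, 68.3 and 83.4 CPM to 88.8, 144.5, 94.0, 204.4 and 189.9 CPM. The lambdoid SM went the other way. There Pgk1 went from 27.3, 31.8, 28.0, 26.3 and 23.9 CPM to 14.8, 8.81, 15.97, 11.3 and 13.2 CPM, a log2 change of -1.10 ± 0.22 (edgeR adjusted p = 0.000386), and Hk2 changed by -0.81 ± 0.22 (adjusted p = 0.024), where 3.01% of all genes were called. Without replicate 4 the sagittal SM and OF had 0 calls, and without replicate 1, 3, 4 or 5 the frontal SM had 0. Limma-voom, with or without the litter ID as a block, called 0 genes in the frontal and lambdoid SM and 3 in the sagittal OF. Leaving out replicate 1, 3, 4 or 5 left 1 call in the lambdoid SM.

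**Figure D4:**
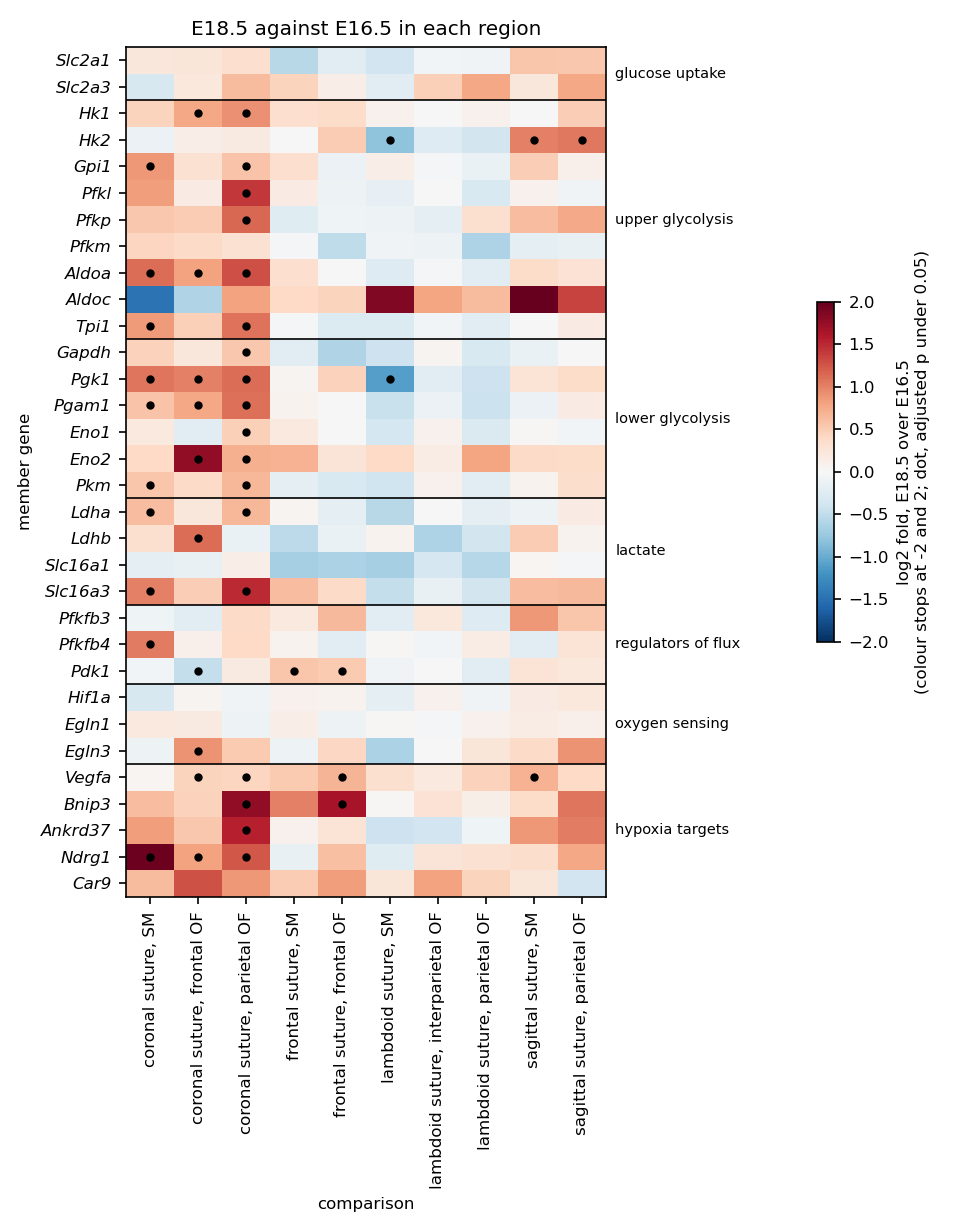
Log2 change from E16.5 to E18.5 for each of the 32 genes (rows, by role) in the 10 regions (columns), with a mark where the edgeR adjusted p was under 0.05. In this joint fit marks gather in the 3 coronal columns, and Vegfa and Bnip3 are above 0 in all 10.

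Whether the difference of OF from SM itself changed between the ages was tested directly. In the mean over sutures edgeR called 0 of the 32 genes, where 0.713% of all genes were called, and DESeq2 and limma-voom called 0 as well; 6 had an unadjusted edgeR p under 0.05. Egln3 came nearest, with a difference 0.65 ± 0.21 wider at E18.5 on the log2 scale (edgeR adjusted p = 0.137). Its medians were 11.9 CPM in SM and 12.3 CPM in OF at E16.5, and 13.4 and 16.8 CPM at E18.5. Gpi1 followed with -0.37 ± 0.12 (adjusted p = 0.149), with medians of 95.8 CPM in SM and 120.1 CPM in OF at E16.5 and of 109.3 and 126.0 CPM at E18.5. Within single sutures only Ndrg1 in the coronal suture passed, at -0.93 ± 0.31 (edgeR adjusted p = 0.0477), where 7.6% of all genes were called. Limma-voom, the repeat libraries, the coronal suture fitted by itself and leaving out replicate 3, replicate 5 or the 3 libraries of most mitochondrial reads each gave 0 calls there. In the frontal, lambdoid and sagittal sutures edgeR, DESeq2 and limma-voom called 0 genes, and 1, 3 and 0 had an unadjusted edgeR p under 0.05, where 0.00506%, 0.126% and 0.0152% of all genes were called. With the litter ID as a term in the edgeR fit the mean over sutures gave 1 call, Gpi1.

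Single cells of coronal suture strips, from 2 libraries at each age, gave the levels of the set in cell classes. After filters the E16.5 libraries kept 466 and 337 cells of 1530 and 1482 barcodes, and those of E18.5 kept 2412 and 1577 of 2628 and 1999. A cell had a median of 2501 and 2121 UMIs in the earlier libraries and of 18476 and 7131 in the later ones. The E16.5 libraries shared 1 barcode and those of E18.5 shared 5. The chemistry differed between the ages (version 3 at E16.5, version 2 at E18.5), so the ages were not compared. UMIs were summed over the cells of a class in each library and scaled by all UMIs of those cells to CPM, and no test was made between classes, whose cells share a library. In all cells Pgk1 stood at 237.7 and 266.0 CPM at E16.5 but at 22.0 and 22.55 at E18.5. Ldha stood at 588.4 and 628.6, then at 741.8 and 627.5. Whether Pgk1 was counted alike in the matrices of both ages was not tested.

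At E16.5 the 32 genes together took 4372 and 4811 CPM in all cells. Osteoclast-like cells held the most, 7887 and 8388 CPM, followed by macrophage-like cells with 6466 and 6812 and chondrocyte-like cells with 6725 and 4396, so that the order of these classes differed between the libraries. A hypodermis-like class had 122 cells in library 1 and 1 in library 2. Osteoblast-like cells, of which there were only 12 and 19, held 4124 and 3661, and dura mater-like cells held the least, 2202 and 2288. At E18.5 the set took 4587 and 3766 CPM in all cells. Macrophage-like cells held 6647 and 5044, proliferating cells 5894 and 4633, pericyte-like cells 5306 and 4765 and osteoblast-like cells 5060 and 3828. A class led by Gpha2, Nppc and Scara5, which the markers did not name, held 2960 and 2715. At a clustering resolution of 1.2 an osteoclast-like class of 70 and 38 cells appeared at E18.5, which the resolution used here did not separate. Whether such cells set the level of the macrophage-like class was not tested.

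Single genes had their own order. Slc16a3, the lactate gene with the widest difference between OF and SM, stood at 96.4 and 139.1 CPM in osteoblast-like cells at E18.5, 85.7 and 135.7 in proliferating cells and 22.7 and 37.1 in endothelial-like cells. A class led by Tppp3, Dpt and Ptx4, with Hhip also among its leading genes, held 107.9 and 101.8. The authors found Hhip enriched in coronal suture mesenchyme, and whether this class is that mesenchyme was not tested. Its level of Ldha was 1284 and 876.7 CPM, against 741.8 and 627.5 in all cells at E18.5. Slc2a1 was highest in endothelial-like cells at E16.5, with 189.2 and 66.3 CPM, against 0 UMIs in the osteoblast-like cells of both libraries. At E18.5 it stood at 95.3 and 134.0 in endothelial-like and 16.4 and 15.2 in osteoblast-like cells. Bnip3 reached 181.8 and 67.2 CPM in chondrocyte-like cells at E16.5, on 7 and 5 UMIs, and at E18.5 113.6 and 93.7, on 261 and 6 UMIs. Slc16a1 reached 280.7 and 385.0 in a class led by Igfbp6, Mfap5 and Bace2. Car9 was rare, with 0 and 4 UMIs in total in the E16.5 libraries and 73 and 10 in those of E18.5.

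**Figure D5:**
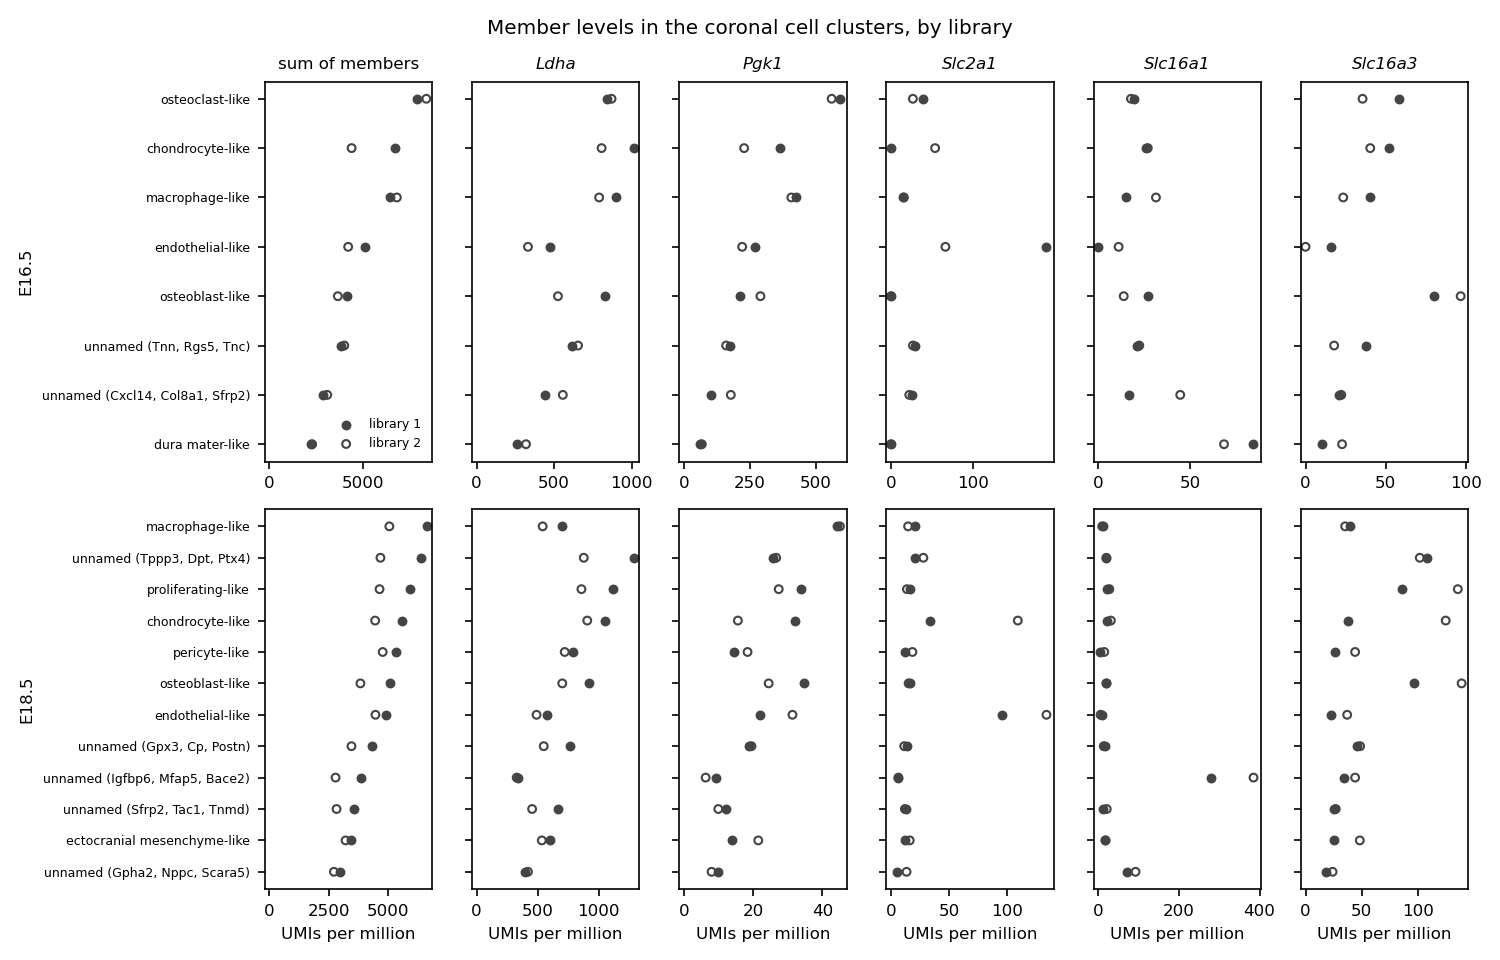
CPM (horizontal axes) in each cell class (vertical axes) for the 32 genes summed and for Ldha, Pgk1, Slc2a1, Slc16a1 and Slc16a3, at E16.5 above and E18.5 below, with a filled point for library 1 and an open point for library 2. The sum is highest in osteoclast-like cells at E16.5 and lowest in dura mater-like cells, at 2202 and 2288 CPM, and Slc16a1 stands out in the class led by Igfbp6, Mfap5 and Bace2.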

How the data were processed

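RNA from laser-captured regions was amplified with the Ovation RNA-Seq System V2 and made into libraries with Nextera XT, per the labels. The authors trimmed reads, aligned them to mm10 with STAR 2.5.3a and counted them per gene with featureCounts 1.6.4; the deposited values are raw counts. The single-cell matrices deposited are raw UMI counts from Cell Ranger on mm10. A deposited table of the authors' own fits, with fold changes and p-values, was not used.

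Counts of 100 libraries were fitted in edgeR 4.0.16 with a group for each region, suture and age, after genes that did not reach 1 CPM in more than 10% of the libraries were removed. TMM factors and the robust quasi-likelihood test were used, with Benjamini-Hochberg adjustment within each comparison and a threshold of 0.05. In means over sutures each suture had equal weight, and a suture with 2 OFs entered with their mean. Only the main set of coronal libraries was used, and the repeat set served as an alternative. Regions of 1 suture and age with the same replicate number share a litter ID in the labels, and each number has its own, and the residuals of same-number SM and OF correlated with a median of 0.051 (60 pairs), against -0.012 for other pairings (240). The ages are unpaired. Counting was unstranded.

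The genes described one by one were Hif1a, Vegfa, Slc2a1, Ldha and Car9 by choice, the 6 with the lowest adjusted p between OF and SM and between the ages, and the 3 with the lowest adjusted p for the difference between ages; of each other list 3 per contrast were named. The members and lists were chosen with earlier results of these data known. Cells with under 800 genes were left out, no doublet caller was run, clusters were formed in scanpy 1.11.5 at resolution 0.8, and the rule that names clusters was set after the clusters were seen. The alternatives were DESeq2, limma-voom, other scalings, no filter, single sutures, left-out replicates and left-out sutures.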

Additional observations from a re-analysis of the deposited data

Results flagged for a closer look

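Of 360 values of single genes or of the score tested for 1 library far from the other 4 of its group, 23 stood apart, where chance marks about 1 in 20. In the coronal suture, Slc16a3 was highest in SM replicate 2 at E16.5 with 9.41 CPM, where the next library had less, and Hk1 was lowest in SM replicate 1 at E16.5 with 5.45 CPM. Car9 was lowest in SM replicate 2 at E18.5 with 2.19 CPM. Replicate 2 of both coronal fronts at E18.5 stood above its group for several genes, with 30.5 CPM of Slc16a3 and 230.0 of Aldoa in the frontal OF, and 431.8 of Pkm, 46.3 of Slc16a3 and 167.7 of Gpi1 in the parietal OF. Slc2a1 was lowest in replicate 1 of the parietal OF with 40.2 CPM.

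In the frontal suture SM at E16.5 Ldha was lowest in replicate 3 with 216.1 CPM and Pkm highest in replicate 1 with 134.6. Replicate 3 of the frontal SM at E18.5 was lowest for Slc2a1, with 18.7 CPM, and for Pkm, with 64.0 CPM. Car9 was lowest in replicate 5 of the frontal OF at E18.5 with 0.16 CPM, in the library with 52.3% mitochondrial reads. In the lambdoid SM Bnip3 was lowest in replicate 1 at E16.5 with 7.57 CPM and in replicate 3 at E18.5 with 6.00 CPM. Aldoa was highest in replicate 5 of the interparietal OF at E16.5 with 323.4 CPM, Hk1 lowest in replicate 1 of that front at E18.5 with 17.6 CPM, and Car9 lowest in replicate 4 of the parietal OF at E18.5 with 0.34 CPM. In the sagittal suture Hk1 was highest in SM replicate 1 at E16.5 with 58.7 CPM and Hk2 highest in OF replicate 5 at E16.5 with 83.4 CPM. Replicate 1 of the sagittal OF at E18.5 was lowest in the score, at 0.56, and for Pkm, at 465.8 CPM.

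Differences between groups of samples were tested directly. The coronal change with age, less that of the other sutures, was called in 11 genes in SM (23.7% of all genes), 14 in OF (27.3%) and 17 over both (37.2%). With the repeat coronal libraries these were 1 (7.73%), 1 (11.6%) and 3 (18.3%). The difference of OF from SM at frontal bone fronts, less that at other fronts, was called in 4 genes at E16.5 (2.91%), 14 at E18.5 (11.5%) and 20 over both (14.6%). Between the ages the difference of OF from SM was called in 1 gene in the coronal suture (7.6% of all genes), Ndrg1, at -0.93 on the log2 scale.

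Data outside the comparisons also held the set: all 32 genes had more than 3 reads in each of 16 libraries of complete sutures at E18.5.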

How the results depend on the processing

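Over all alternatives run, 566 counts of called genes stayed within 1.5 times the reported count and 105 did not. Of the log2 changes of single genes 819 kept their side of the threshold, 26 lost a call, 21 gained one and 1 turned. Direction was not compared where neither the main fit nor the alternative called the gene. The counts for OF against SM in the means over sutures stayed within 1.5 times under every alternative run. When single replicates were left out they were 25 to 30 calls over both ages, 21 to 24 at E16.5 and 24 to 25 at E18.5. The comparisons between ages and between bones moved, and the causes were not tested. Low counts limit Aldoc and Car9, which were near 0 in some libraries, and the single-cell classes of few cells.

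With each suture fitted by itself, calls for OF against SM numbered 10 (E16.5) and 11 (E18.5) in the frontal suture, 9 (E16.5) and 0 (E18.5) in the coronal frontal OF and 10 in the coronal parietal OF at E18.5. Calls between the ages numbered 4 in the frontal SM, 5 in the frontal OF, 5, 2 and 3 in the coronal SM, frontal OF and parietal OF, 7 in the lambdoid SM, 3 in the lambdoid parietal OF, 10 in the sagittal SM and 13 in the sagittal OF. The difference between ages of OF against SM had 0 calls in the coronal and 1 in the lambdoid suture, and the parietal against the frontal coronal OF had 0 at E16.5, 0 at E18.5 and 1 over both.

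With total counts in place of scaling factors, calls against SM at E18.5 numbered 1 in the coronal frontal OF and 13 in the coronal parietal OF. Between the ages they numbered 20 in the coronal SM, 22 in the coronal frontal OF and 1 in the sagittal SM. The coronal difference between ages had 0, and parietal against frontal coronal OF had 2, 3 and 7 at E16.5, E18.5 and both. The coronal change against the other sutures had 19, 24 and 26 in SM, OF and both. Frontal bone against other fronts had 2 at E16.5. The share of all genes called with total counts is not given, so these counts are not read as a result about the set.

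With the repeat coronal libraries, calls numbered 9 in the coronal frontal OF against SM at E16.5, 1, 2 and 5 between the ages in the coronal SM, frontal OF and parietal OF, 2 in the sagittal OF, 0 for the coronal difference between ages, 1 for parietal against frontal OF at E16.5, 1, 1 and 3 for the coronal change against the other sutures in SM, OF and both, and 2 lower at E18.5 in the mean over sutures.

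SM and OF of the same number share a litter ID in the labels. For changes between the ages the litter ID was a block in limma-voom, where the correlation within a litter ID was 0.082. Calls then numbered 0 in the frontal SM, 0 in the lambdoid SM, 3 in the sagittal OF and 4 in the mean over SM. These counts were the same in limma-voom without the block. In the mean over sutures 0 were lower. For OF against SM the litter ID was a term in the edgeR fit. The difference between ages then had 2 calls in the coronal suture and 1 in the mean, Gpi1 at -0.40 (edgeR adjusted p = 0.0184). Of all other counts of calls, none moved by over 1.5 times with the litter ID in the fit.

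Between the ages limma-voom gave 0 calls in the frontal SM, 0 in the lambdoid SM, 3 in the sagittal OF and 4 in the mean over SM, 0 for the coronal difference between ages and 1 for frontal bone against other fronts at E16.5. DESeq2 gave 2 in the frontal SM. Without the low-count filter there were 0 in the frontal SM, 0 for the coronal difference between ages and 2 for frontal bone against other fronts at E16.5. Without the 3 libraries with over 50% mitochondrial reads, an alternative chosen after seeing the data, there were 4 in the coronal frontal OF at E18.5, 2 in the frontal SM between the ages and 0 for the coronal difference between ages.

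Means over sutures between the ages without the coronal suture gave 4 calls in SM, 5 in OF, 9 higher and 2 lower over both, and Pgk1 turned to -0.0416. Without the frontal suture there were 4 in SM and 0 lower, and without the lambdoid suture 0 lower.

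Leaving out single replicates gave ranges for OF against SM of 2 to 8 calls in the frontal suture at E18.5 and 1 to 4 in the coronal frontal OF at E18.5. Between the ages the ranges were 0 to 1 in the frontal SM, 6 to 11 in the coronal SM, 1 to 2 in the lambdoid SM, 0 to 2 in the sagittal SM, 0 to 1 in the sagittal OF, 4 to 6 in the mean over SM and 0 to 1 for the coronal difference between ages. They were 1 to 5 and 5 to 12 for parietal against frontal coronal OF at E16.5 and E18.5, 5 to 10 and 5 to 14 for the coronal change against other sutures in SM and OF, and 1 to 3 and 13 to 21 for frontal bone against other fronts at E16.5 and over both ages.

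With a minimum of 500 genes per cell the set took 2161 CPM in dura mater-like, 5641 in macrophage-like and 7761 in osteoclast-like cells at E16.5. The 71 other single-cell levels stayed within the spread between libraries. That count includes each library set against the mean of both, which always lies within their SD, so those values check nothing.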

Other observations

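Complete sutures at E18.5, with 4 libraries for each suture, served as normalization controls and enter no comparison. The 4 libraries of a suture carry the same replicate number in the labels, so they may be repeats of 1 sample, and their spread may be technical. Pgk1, phosphoglycerate kinase, had medians of 44.1 CPM in the coronal, 40.8 in the frontal, 43.3 in the lambdoid and 47.5 in the sagittal suture. Ldha, lactate dehydrogenase A, had medians of 611.3, 550.3, 564.6 and 597.0 CPM in the same order. Slc16a3, the lactate exporter, had the wider spread, from 9.08 to 17.0 CPM in the 4 frontal libraries and from 20.4 to 36.9 CPM in the 4 coronal ones. Car9 had medians of 2.51 CPM in the coronal, 4.57 in the frontal, 2.82 in the lambdoid and 4.68 in the sagittal suture.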
